A study of Mus musculus with 84 samples.

Results

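Mammary tumors that arose in MMTV-Wnt-1 transgenic mice without p53 (titled WntT/P53-/-, here p53 null) were set against tumors of MMTV-Wnt-1 transgenic mice with no further genotype in the title (WntT). The 6 p53 null and 10 WntT tumors were all the samples with these titles among the 19 arrays of the 8.7k type, out of 84 samples in the series. Every tumor of both groups carried the Wnt-1 transgene, which the mouse mammary tumor virus (MMTV) promoter drives mainly in mammary epithelium. The study describes the WntT mice as otherwise wild type, while the sample titles alone do not give their p53 status. By the study's methods, all p53 null mice were young at tumor collection while MMTV-Wnt-1 mice ranged from equally young to much older, and no age is given for a single tumor, so that age and genotype cannot be told apart. RNA came from whole snap-frozen tumors of mice of mixed, mostly FVB, background. Tumors are called here by the number in their title, 86 to 91 for p53 null and 73 to 76 and 92 to 97 for WntT.

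The transcription factor p53, encoded by Trp53, is held at low levels by the ubiquitin ligase Mdm2, is stabilised after DNA damage or oncogene activation, and then switches on genes that stop the cell cycle, repair DNA or start cell death. It also lowers, indirectly, many genes of the G2 phase and mitosis, through p21 (Cdkn1a) and repressor complexes that act at cell cycle promoters. Cells that lose p53 are known to tolerate abnormal chromosome numbers, and in mammary tumor models loss of p53 shortens the time to tumors.

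Each value is a log2 ratio of tumor RNA to a common reference, a pool of RNA from mouse organs, at 1 of 8832 spotted cDNA clones. A positive value is a signal above the pool, and differences between the groups are p53 null minus WntT. Ratios of different clones cannot be ranked against each other, because each depends on that gene's level in the pool. Array medians lay between -0.06 and 0.02. The SD of the log2 ratios over an array averaged 1.05 ± 0.11 on p53 null arrays and 0.949 ± 0.085 on WntT arrays (SD, n = 6 and 10), a difference of 0.11 with an exact two-sided permutation p of 0.046. Tumors 87 and 88 had the widest values among p53 null tumors, so that counts are also given without them. No clone carries the single symbol Trp53, Bax or Met, and the loss of p53 RNA itself could not be checked on these arrays. The epithelial gene Cdh1, for E-cadherin, had log2 ratios of -0.07, 1.41 and 1.75 (lowest, median and highest) in p53 null tumors. In WntT tumors they were 0.27, 1.67 and 2.17. Cdh1 alone does not establish epithelial identity, since the keratin Krt19 differed by -1.35 and 2 Krt7 clones by -0.81 and -0.11.

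The profiles of both genotypes overlapped. The Pearson correlation of 2 arrays over all clones had a median of 0.803 among the 15 pairs of p53 null tumors, of 0.790 among the 60 pairs of a p53 null with a WntT tumor, and of 0.818 among the 45 pairs of WntT tumors. Of the squared distance between arrays, 15.1% lay between the genotypes, which was more than in most of the 8008 possible splits of the 16 arrays (exact permutation p = 0.0011). This shared part was small beside the differences among tumors of 1 genotype.

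With limma and Benjamini-Hochberg adjustment over all 8832 clones, 39 clones (0.442%) passed an adjusted p under 0.05, of which 13 (0.147%) rose and 26 (0.294%) fell in p53 null tumors. These clones represent 28 genes and 8 clones without a single gene symbol. The log2 differences ran from 0.63 to 1.89 among clones that rose and from -0.45 to -1.34 among clones that fell. The calls sat close to the threshold, since the lowest adjusted p was 0.041 and 191 clones had an adjusted p under 0.1. A total of 113 clones (1.28%) had an unadjusted P under 0.001, and 1333 (15.1%) had P under 0.05, 546 higher (6.18%) and 787 lower (8.91%). The median difference of all clones was -0.02. No clone passed when any 1 of 9 arrays was left out (p53 null 88, 90 or 91, or WntT 73, 74, 75, 95, 96 or 97), while 84 to 135 clones still had P under 0.001 without any 1 of the 16 arrays, and 28 passed without both 87 and 88, 8 of them among the 39.

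Known p53 targets stood below the WntT level in most cases. Of a list of 50 textbook targets, 17 genes had 22 clones on the array, and 18 of these clones had a negative difference. Of all 8832 clones, 4791 had a negative difference. Ccng1 and Steap3 fell, and 6 clones were lower and 2 higher at P under 0.05 (backgrounds 8.91% and 6.18% of all clones). The median difference was -0.15, against -0.02 for all clones. After quantile normalization it was -0.09, and the called clones of Ccng1 and Steap3 had adjusted p of 0.078 and 0.091. The mean over the list's clones was -0.48, -0.38 and -0.25 in p53 null tumors (lowest, median and highest) and -0.26, -0.20 and 0.07 in WntT tumors, and 4 of the 6 p53 null tumors lay below all WntT tumors. The mean over all clones was -0.22, -0.16 and -0.09 in p53 null tumors and -0.16, -0.14 and -0.06 in WntT tumors. By that mean 3 p53 null tumors already lay below all WntT tumors.

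Promoters of Ccng1, Mdm2 and Cdkn1a, of which only Ccng1 was called, are shown because p53 acts by binding DNA near the genes it switches on. They are the windows that held a match to the p53 half-site, among those of these genes and Steap3. Each is the RefSeq sequence (GRCm38.p6) from 250 bases before the transcription start to the 50 bases from it on, read 5′ to 3′ on the gene's strand. Capitals mark each match, on either strand, to the p53 half-site, the consensus decamer of which a full p53 response element holds a pair. The first is that of Ccng1 on the minus strand at chr11:40755237-40755536, the next that of Mdm2 on the minus strand at chr10:117710709-117711008, and the last that of 1 of 2 Cdkn1a starts on the plus strand at chr17:29090729-29091028.
Ccng1: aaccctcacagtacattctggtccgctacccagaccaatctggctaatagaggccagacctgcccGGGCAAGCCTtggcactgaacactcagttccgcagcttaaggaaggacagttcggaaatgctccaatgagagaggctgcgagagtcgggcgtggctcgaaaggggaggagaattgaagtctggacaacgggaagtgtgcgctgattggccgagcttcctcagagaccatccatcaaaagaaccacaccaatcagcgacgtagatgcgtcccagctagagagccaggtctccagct
Mdm2: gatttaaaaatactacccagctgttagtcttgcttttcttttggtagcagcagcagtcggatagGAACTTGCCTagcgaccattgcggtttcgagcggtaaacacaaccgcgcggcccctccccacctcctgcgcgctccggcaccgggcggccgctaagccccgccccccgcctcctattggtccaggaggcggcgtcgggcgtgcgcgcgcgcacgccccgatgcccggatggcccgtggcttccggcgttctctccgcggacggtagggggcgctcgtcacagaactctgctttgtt
Cdkn1a: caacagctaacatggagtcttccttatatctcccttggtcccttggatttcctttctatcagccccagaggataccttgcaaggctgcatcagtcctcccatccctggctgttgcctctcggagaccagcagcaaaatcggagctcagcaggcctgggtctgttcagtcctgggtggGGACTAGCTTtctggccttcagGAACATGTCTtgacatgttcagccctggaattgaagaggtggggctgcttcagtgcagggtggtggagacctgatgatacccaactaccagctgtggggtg
The half-site begins at position -185 in Ccng1, at -186 in Mdm2, and at -73 and -51 in Cdkn1a, counting the first transcribed base as 1. Such a match occurs in 2745 of 32851 mouse promoters of this length (8.36%), and none was found in the other Cdkn1a window or in the windows of the 4 Steap3 starts. A match describes the letters in the window only.

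Cyclin G1 (Ccng1), a p53 target that recruits a phosphatase to Mdm2, had log2 ratios of -1.45, -1.13 and -1.0 (lowest, median and highest) in p53 null tumors and of -0.78, -0.35 and 0.54 in WntT tumors. All p53 null tumors were below all WntT tumors. Of all clones 33 (0.374%) did not overlap between the groups, 24 with p53 null tumors below (0.272%) and 9 with p53 null tumors above (0.102%). The difference was -0.95 ± 0.19 (SE), 1.93-fold lower, with an adjusted p of 0.046. A further Ccng1 clone gave -0.74 ± 0.19 and an adjusted p of 0.082. Its values overlapped, with 3 p53 null tumors below all WntT tumors.

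Steap3, a ferrireductase of iron uptake also known as a p53-inducible gene, was measured by 2 clones that disagreed. One ranged over -2.14, -1.61 and -1.16 in p53 null tumors and over -1.34, -0.67 and -0.14 in WntT tumors. It fell by 0.96 ± 0.18 (1.94-fold, adjusted p = 0.041), with 4 p53 null tumors below all WntT tumors. The other clone differed by -0.17 ± 0.17 (adjusted p = 0.67).

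Mdm2, both the main inhibitor of p53 and its target, had log2 ratios of -0.60, -0.28 and 0.64 in p53 null tumors and of -0.10, 0.24 and 0.73 in WntT tumors. Tumor 89 was high at 0.64 and the other 5 p53 null tumors lay below all WntT tumors. The difference was -0.47 ± 0.17 with an adjusted p of 0.20. Cdkn1a, the cyclin-dependent kinase inhibitor p21, had log2 ratios of -1.34, 0.09 and 1.99 in p53 null tumors and of -0.55, 0.08 and 1.71 in WntT tumors. Here the p53 null tumors spread beyond the WntT range on both sides, with 87 and 88 below it and 89 above it, and the difference of -0.11 ± 0.43 had an adjusted p of 0.93.

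Among the remaining targets, named after their values were seen, Epha2, an ephrin receptor tyrosine kinase, had a difference of -0.79 ± 0.23 (adjusted p = 0.10) and 5 p53 null tumors below all WntT tumors. Ei24, an endoplasmic reticulum protein induced by p53, differed by -0.39 ± 0.16 (adjusted p = 0.26). Sfn (14-3-3 sigma), which holds cells in G2 after damage and is also a marker of squamous epithelium, stood on the other side at 0.71 ± 0.22 (adjusted p = 0.13). So did 2 clones of Tap1 (0.26 ± 0.12 and 0.11 ± 0.12, adjusted p = 0.33 and 0.70) and Igfbp3 (0.54 ± 0.35, adjusted p = 0.50). These 4 clones were the positive ones of the list, against 18 negative. Btg2, Apaf1, Sesn1, Sesn2 and Xpc, targets in growth arrest, cell death, stress response and repair, had differences between -0.19 and -0.03 with adjusted p of 0.69 or more.

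**Figure D1:**
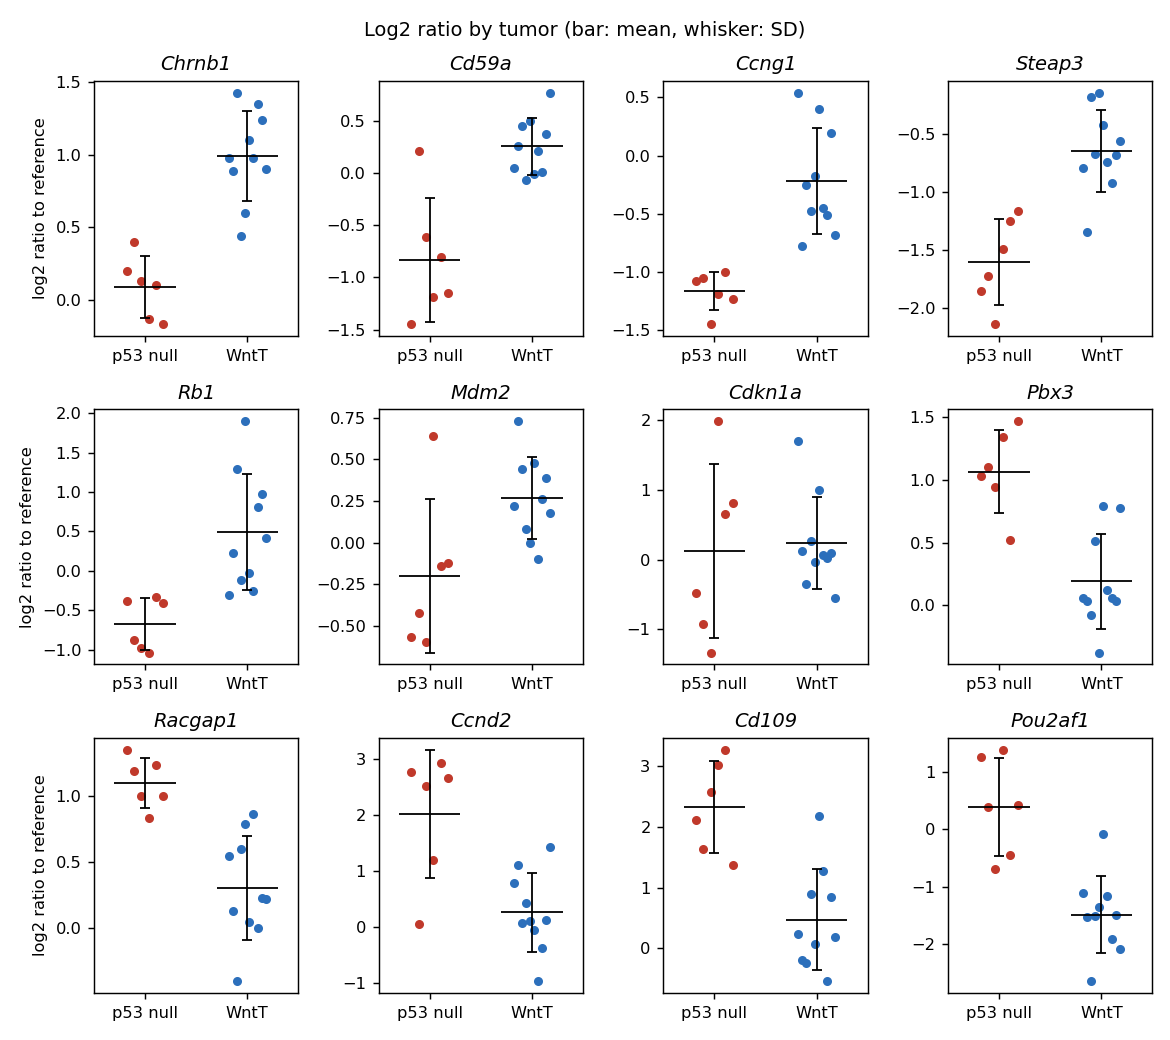
Log2 ratios of tumor to reference (vertical axis) of 12 genes in 6 p53 null tumors (left, red) and 10 WntT tumors (right, blue). Each point is 1 tumor, the bar is the group mean and the whisker the SD. Where a gene has several clones, only that of the smallest unadjusted p is shown. The clones shown for Chrnb1, Ccng1 and Rb1 do not overlap between the groups, while Cdkn1a spreads from -1.34 to 1.99 in p53 null tumors.

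The clones that rose most came from genes of different known roles. Pou2af1, a transcriptional coactivator best known from B cells, had log2 ratios of -0.69, 0.42 and 1.40 in p53 null tumors and of -2.66, -1.51 and -0.08 in WntT tumors. It rose 3.70-fold (1.89 ± 0.35, adjusted p = 0.041), with 4 p53 null tumors above all WntT tumors and tumors 88 and 90 inside the WntT range. Cd109, a membrane-anchored protein that restrains TGF-beta signaling, had log2 ratios of 1.38, 2.35 and 3.28 in p53 null tumors and of -0.55, 0.21 and 2.19 in WntT tumors. It rose 3.65-fold (1.87 ± 0.38, adjusted p = 0.048), and the WntT tumor 93 at 2.19 overlapped the p53 null values.

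Clec2g, of the C-type lectin family on distal chromosome 6, rose 2.17-fold (1.12 ± 0.23, adjusted p = 0.048), with tumors 88 and 89 within the WntT range. Ralgps2, an exchange factor for Ral GTPases, rose 2.01-fold (1.01 ± 0.18, adjusted p = 0.041) and was highest in tumors 87 and 88. Fam171b rose by 1.10 ± 0.24 (adjusted p = 0.049), and this call was lost when any 1 array was left out, as adjusted p then ran from 0.050 to 0.092. Lhfpl2, a tetraspan membrane protein, ranged over 0.83, 0.99 and 1.78 in p53 null tumors and over -0.40, 0.25 and 0.56 in WntT tumors. These values did not overlap, and it rose 1.86-fold (0.89 ± 0.17, adjusted p = 0.043).

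Smaller rises were found for Irgm1, an interferon-induced GTPase (0.84 ± 0.17), Racgap1, a part of the centralspindlin complex needed for cytokinesis (0.80 ± 0.17), Gcnt1, a transferase of O-linked glycan branches (0.77 ± 0.15), Slc38a1, a glutamine transporter (0.74 ± 0.15), and Senp1, a protease that removes SUMO (0.63 ± 0.12). Their adjusted p lay between 0.041 and 0.049. Senp1 did not overlap, with log2 ratios of 0.24, 0.48 and 0.77 in p53 null tumors and of -0.50, -0.08 and 0.20 in WntT tumors. Racgap1 lay at 0.83, 1.09 and 1.35 in p53 null tumors and at -0.40, 0.22 and 0.86 in WntT tumors, with 5 p53 null tumors above all WntT tumors.

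The largest fall was that of Plscr2, of the phospholipid scramblase family, with log2 ratios of -3.18, -1.74 and -0.98 in p53 null tumors and of -1.04, -0.67 and 0.04 in WntT tumors (-1.34 ± 0.28, 2.53-fold, adjusted p = 0.049). All p53 null tumors but tumor 86 were below the WntT range. Tmprss2, a membrane serine protease of secretory epithelia, had log2 ratios of -1.17, -0.27 and 0.80 in p53 null tumors and of 0.53, 0.91 and 1.21 in WntT tumors. It fell by 1.19 ± 0.23 (2.28-fold, adjusted p = 0.041), and tumor 86 at 0.80 was the 1 p53 null tumor inside the WntT range.

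Cd59a, which protects cells from the complement membrane attack complex, had log2 ratios of -1.45, -0.98 and 0.21 in p53 null tumors and of -0.07, 0.23 and 0.77 in WntT tumors. It fell by 1.09 ± 0.20 (2.12-fold, adjusted p = 0.041). Tumor 87 lay among the WntT tumors and the other 5 p53 null tumors were below all of them. Isoc1 ranged over -0.30, -0.09 and 0.56 in p53 null tumors and over 0.65, 0.87 and 1.36 in WntT tumors, with no overlap, and fell by 0.88 ± 0.15 (adjusted p = 0.041).

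Ldhd, the mitochondrial D-lactate dehydrogenase, fell by 1.06 ± 0.22, and Atp11a, a phospholipid flippase, fell by 0.99 ± 0.20 (adjusted p = 0.049 for both), with 4 and 3 p53 null tumors below all WntT tumors. Both clones of Ccdc117 fell, by 0.84 ± 0.16 and by 0.86 ± 0.16 (adjusted p = 0.041), with no overlap. Nedd4l, a ubiquitin ligase that removes sodium channels and other membrane proteins from the cell surface, fell in 3 clones, by 0.82 ± 0.16, 0.78 ± 0.16 and 0.77 ± 0.16 (adjusted p = 0.043, 0.049 and 0.048). Among further clones that fell, named after their values were seen, were Cbs, the first enzyme of transsulfuration (-0.69 ± 0.12), Shroom3, an organiser of apical actin in epithelia (-0.74 ± 0.15), Mcur1, a regulator of mitochondrial calcium uptake (-0.56 ± 0.10), and Smpd2, a neutral sphingomyelinase (-0.45 ± 0.09). The groups did not overlap in any of these 4 clones.

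Several growth regulators that the study names for this comparison had large differences, although most missed the adjusted threshold. Ccnd2, cyclin D2, which drives entry into the cell cycle with Cdk4 and Cdk6, had log2 ratios of 0.05, 2.59 and 2.92 in p53 null tumors and of -0.97, 0.12 and 1.42 in WntT tumors. Tumors 86, 88, 90 and 91 lay above all WntT tumors, at 2.77, 2.51, 2.92 and 2.66, while tumors 87 (at 0.05) and 89 (at 1.20) lay within their range. The difference of 1.75 ± 0.42 (3.37-fold) had an adjusted p of 0.062, which fell to 0.014 without tumor 87 and was 0.12 or less without any other array.

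Rb1, the retinoblastoma protein that blocks entry into S phase, had log2 ratios of -1.04, -0.64 and -0.33 in p53 null tumors and of -0.30, 0.32 and 1.90 in WntT tumors. The groups did not overlap, by a gap between -0.33 and -0.30, and the difference of -1.16 ± 0.30 (2.24-fold) had an adjusted p of 0.079. Pbx3, a homeodomain partner of Hox proteins, rose 1.83-fold (0.88 ± 0.18, adjusted p = 0.049), with log2 ratios of 0.52, 1.07 and 1.47 in p53 null tumors and of -0.38, 0.06 and 0.79 in WntT tumors, with tumor 90 the 1 p53 null tumor inside the WntT range.

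The Myb gene, a transcription factor of progenitor cells, differed by 1.30 ± 0.64 and 1.46 ± 0.66 in its 2 clones (adjusted p = 0.35 and 0.31). Tumor 88 stood far below the other p53 null tumors in both, at -3.57 and -3.52, and without 87 and 88 the differences were 2.04 and 2.18. Bcl11a, a zinc finger transcription factor of lymphoid and mammary progenitor cells, differed by 0.63 ± 0.34 and 0.56 ± 0.25 in its 2 clones (adjusted p = 0.40 and 0.30).

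Chrnb1 had the smallest unadjusted p of all clones (9.8e-06). It encodes a subunit of the muscle acetylcholine receptor and lies close to Trp53 on chromosome 11. Its log2 ratios were -0.17, 0.12 and 0.40 in p53 null tumors and 0.44, 0.98 and 1.43 in WntT tumors, with no overlap, a difference of -0.90 ± 0.15 and an adjusted p of 0.041. Of 17 genes around Trp53 that the array measures from Pfas to Nlgn2, Chrnb1 and its neighbours Zbtb4 and Nlgn2 were the 3 with P under 0.05, a choice made with the values known. Over all clones 15.1% had P under 0.05 in either direction and 8.91% were lower, so that 3 of 17 is near the general share. Zbtb4, a zinc finger repressor, fell by 0.58 ± 0.12 (adjusted p = 0.049) and Nlgn2, an adhesion molecule of inhibitory synapses, differed by -0.46 ± 0.11 (adjusted p = 0.066 in the fit per gene). The closer neighbours Efnb3, Sat2 and Fxr2 differed by 0.00, 0.13 and -0.20, with adjusted p of 0.68 or more.

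Genes of mitosis stood higher in p53 null tumors. All 20 clones of 16 measured mitosis genes had a positive difference (4041 of all 8832 clones had one), with a median of 0.56. At P under 0.05, 15 of them were higher and 0 lower (backgrounds 6.18% and 8.91%). The mean over these clones was 0.44, 0.71 and 0.98 in p53 null tumors and -0.44, 0.17 and 0.63 in WntT tumors, and 4 p53 null tumors lay above all WntT tumors. The count stayed at 15 without tumors 87 and 88 and ran from 9, without tumor 86, to 17 when each array was left out in turn. Only Racgap1 passed the adjusted threshold.

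The other mitosis genes named here were chosen after their values were seen. Kif20a, a kinesin of the central spindle, had log2 ratios of 0.52, 1.23 and 1.88 in p53 null tumors and of -0.70, 0.42 and 1.02 in WntT tumors, a difference of 0.90 ± 0.26 (adjusted p = 0.10). Nek2, a centrosome kinase, differed by 0.72 ± 0.18 (adjusted p = 0.076), the spindle checkpoint gene Mad2l1 by 0.66 ± 0.18 and 0.52 ± 0.20 in its 2 clones, and the microtubule polymerase Ckap5 by 0.63 ± 0.15 and 0.32 ± 0.14. Cdk1, the kinase that starts mitosis, differed by 0.76 ± 0.33 and reached its highest log2 ratio, 2.60, in tumor 88.

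The promoter of Racgap1, the called mitosis gene, is shown because p53 lowers many G2 and mitosis genes through the cell cycle homology region (CHR), spelled TTTGAA. It is the RefSeq sequence (GRCm38.p6) on the minus strand at chr15:99651607-99651906, with the CHR in capitals.
Racgap1: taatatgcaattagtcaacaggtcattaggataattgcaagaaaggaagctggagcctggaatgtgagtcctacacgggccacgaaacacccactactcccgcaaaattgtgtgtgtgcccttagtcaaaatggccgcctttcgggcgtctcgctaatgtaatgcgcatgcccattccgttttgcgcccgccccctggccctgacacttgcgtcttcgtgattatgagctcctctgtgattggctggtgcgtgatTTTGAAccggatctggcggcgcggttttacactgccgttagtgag
The match begins at position 6, and TTTGAA on either strand occurs in 5878 of 32851 promoters of this length (17.9%).

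Genes of DNA replication and repair differed less. Of 24 replication clones 3 were higher at P under 0.05 (12.5%, against 6.18% of all clones) and 0 lower, with a median of 0.14, and 5 were higher without tumor 87 and 6 without both 87 and 88. Those 3 in the full set were Mcm2 (0.55 ± 0.17) and Mcm4 (0.39 ± 0.17), of the replicative helicase, and Rpa3 (0.45 ± 0.15), of the single-strand binding complex. Of 14 repair clones 5 were higher (35.7%) and 0 lower, 3 being higher without tumors 87 and 88. They were 2 of Xrcc1, a scaffold of single-strand break repair (0.41 ± 0.11 and 0.37 ± 0.13), and 1 each of Ercc1, Mre11a and Rad52. Of 16 Bcl2 family and caspase clones 2 were higher (12.5%), the pro-apoptotic Bok (0.80 ± 0.19, adjusted p = 0.064) and Bad (0.41 ± 0.13). Another 1 was lower (6.25%, against 8.91% of all clones), Mcl1 (-0.34 ± 0.15). None of the replication, repair or Bcl2 family clones passed the adjusted threshold.

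**Figure D2:**
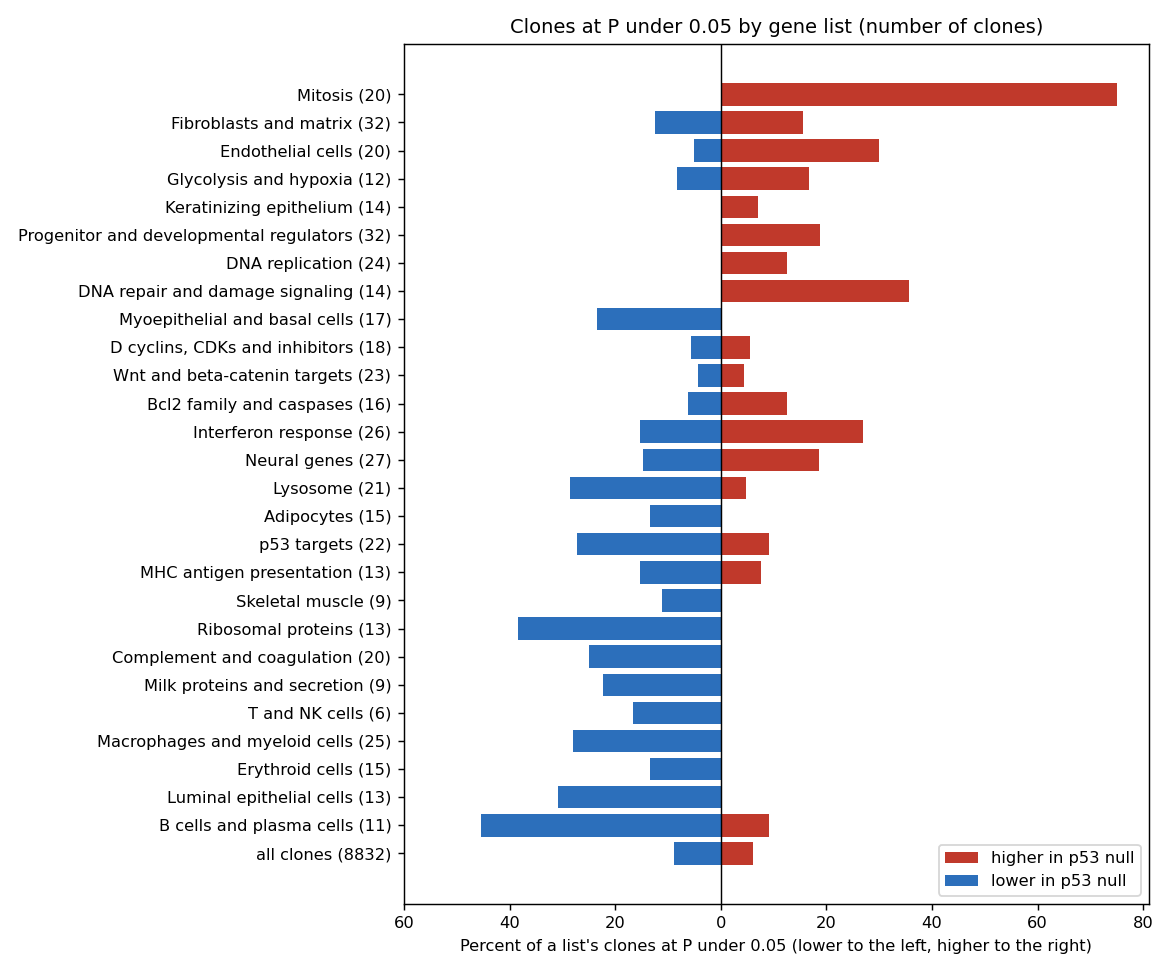
Percent of each gene list's clones with P under 0.05, lower in p53 null tumors to the left (blue) and higher to the right (red), with the number of clones beside each list's name and all 8832 clones at the bottom. Mitosis has the longest bar on the higher side, with 15 of 20 clones.

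Markers of luminal epithelium stood lower in p53 null tumors. Of 13 luminal clones 11 had a negative difference (4791 of all 8832 clones had one), and the median was -0.53. At P under 0.05, 4 were lower (30.8%, against 8.91% of all clones) and 0 higher. Without tumors 87 and 88 the median was -0.22, with 3 clones lower and 1 higher, and without any 1 of p53 null 88 and WntT 73, 76 and 93 only 2 were lower. The mean over these clones was -0.92, -0.00 and 0.07 in p53 null tumors and 0.08, 0.27 and 0.57 in WntT tumors, so that the groups did not overlap, by a narrow gap. Tumor 88 held the lowest mean, and the other 5 p53 null tumors lay between -0.08 and 0.07. By the mean over all clones, 3 p53 null tumors also lay below all WntT tumors. The luminal keratin Krt19 had log2 ratios of -0.32, 0.94 and 2.44 in p53 null tumors and of 1.73, 2.55 and 3.16 in WntT tumors, a difference of -1.35 ± 0.34 (adjusted p = 0.076). Mal, a sorting protein of apical membranes, differed by -1.04 ± 0.33, and 2 clones of Krt7 disagreed, at -0.81 ± 0.37 and -0.11 ± 0.16. Because RNA came from whole tumors, fewer cells of a type and less RNA per cell cannot be told apart.

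Myoepithelial markers were mixed. Of 17 clones 4 were lower (23.5%, against 8.91% of all clones) and 0 higher at P under 0.05, and 2 were lower without tumor 87. The median of 0.11 became -0.19 after quantile normalization. Cnn1, the smooth muscle calponin of myoepithelium, had log2 ratios of -1.65, -0.98 and 0.80 in p53 null tumors and of -1.70, 0.67 and 1.98 in WntT tumors (-1.38 ± 0.51, adjusted p = 0.20). Tgfb1i1, a focal adhesion coactivator, differed by -0.78 in both of its clones. Trf, the iron carrier transferrin, which milk contains, differed by -2.22 ± 0.57 (adjusted p = 0.081), with log2 ratios of -5.69, -4.78 and -1.80 in p53 null tumors and of -3.37, -1.83 and -0.78 in WntT tumors.

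Markers of immune cells stood lower in p53 null tumors more often than higher. Of 25 macrophage and myeloid clones 22 had a negative difference (4791 of all 8832 clones had one), and the median was -0.32. At P under 0.05, 7 were lower (against 8.91% of all clones) and 0 higher. The lower count was 4 without tumor 90 and 5 without tumors 87 and 88. Their mean was -0.99, -0.60 and 0.34 in p53 null tumors and -0.67, -0.06 and 0.73 in WntT tumors, with wide overlap. Among them were Cd14, the lipopolysaccharide coreceptor (-1.39 ± 0.40), Lcn2, an iron-siderophore binder also made by epithelium (-1.49 ± 0.47), and both clones of Lipa, the lysosomal acid lipase (-1.38 ± 0.43 and -1.35 ± 0.46).

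Of 11 B cell and plasma cell clones 5 were lower (45.5%) and 1 higher (9.09%) at P under 0.05 (backgrounds 8.91% and 6.18% of all clones). Their median was -0.54, and -0.25 after quantile normalization. The lower ones were Ikzf1, the lymphoid factor Ikaros (-1.78 ± 0.41, adjusted p = 0.057), Jchain, which joins secreted antibodies (-1.27 ± 0.36), the B cell receptor chains Cd79b (-1.07 ± 0.34) and Cd79a (-0.40 ± 0.16), and Cd37 (-0.56 ± 0.16). Pou2af1 was the 1 higher clone, so that its rise went against the other B cell markers. The mean over this list was -2.69, -2.40 and -1.87 in p53 null tumors and -2.24, -1.87 and -1.53 in WntT tumors. Of 6 T and NK cell clones 1 was lower (16.7%, against 8.91% of all clones), Il7r (-0.55 ± 0.20), and 0 were higher.

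Interferon-response genes were split. Of 26 clones 7 were higher (26.9%, against 6.18% of all clones) and 4 lower (15.4%, against 8.91%) at P under 0.05, with a median of -0.03 that became 0.13 after quantile normalization. Without tumors 87 and 88, 6 were higher and 1 lower, and 2 were lower without tumor 89. The higher ones were Irgm1, Mx2 (0.41 ± 0.13) and the oligoadenylate synthetase family that triggers RNA decay: Oasl2 (0.98 ± 0.27), Oas1a (0.96 ± 0.27), Oasl1 (0.65 ± 0.15, adjusted p = 0.057) and 2 clones of Oas2 (0.85 ± 0.24 and 0.63 ± 0.24). All of these synthetase genes lie on chromosome 5. The lower ones were both clones of Irf1 (-0.52 ± 0.15 and -0.23 ± 0.10), Iigp1 (-0.62 ± 0.25) and Isg20 (-0.43 ± 0.18).

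Stromal lists gave no single direction. Of 20 endothelial clones 6 were higher (against 6.18% of all clones) and 1 lower at P under 0.05, but 0 were higher without tumor 88, without tumor 91 or without both 87 and 88, and 1 to 3 without tumor 87 or any 1 of WntT 73, 92, 93, 94, 95 and 96. Of 32 fibroblast and matrix clones 5 were higher (15.6%, against 6.18%) and 4 lower (12.5%, against 8.91%). The higher count was 1 without tumor 88 or tumor 91, 2 without both 87 and 88, and 3 without any 1 of WntT 74, 92, 94, 95 and 97. The higher ones were 4 clones of the growth factor receptor Pdgfra (0.55 to 1.17) and Col6a3, and the lower ones were 2 of Timp2 and 1 each of Col1a1 and Col14a1. Of 13 ribosomal protein clones 12 had a negative difference (4791 of all 8832 clones had one). Of these 13, 5 were lower (38.5%, against 8.91% of all clones), and 3 were lower without tumors 87 and 88. Rpl5, a ribosomal protein that can bind Mdm2, did not overlap, at 0.35, 0.62 and 0.82 in p53 null tumors and 0.84, 1.15 and 1.37 in WntT tumors (-0.50 ± 0.11, adjusted p = 0.055).

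Of 23 clones of Wnt target genes 1 was higher at P under 0.05 (4.35%, against 6.18% of all clones), Tnfrsf19 (0.88 ± 0.29). Another 1 was lower (4.35%, against 8.91%), Wnt5b, a Wnt ligand (-1.22 ± 0.30, adjusted p = 0.068). Of 32 clones of progenitor and developmental regulators 6 were higher (18.8%, against 6.18%) and 0 lower (against 8.91%). Among the higher ones were 2 clones of Sox11, a factor of embryonic progenitors (1.27 ± 0.34 and 0.96 ± 0.31), and Gpc3, a cell surface proteoglycan (0.78 ± 0.26). The rest were Myb, Bcl11a and Pbx3, which the study already names as higher in this same comparison. Their part of the count was thus known beforehand and is no separate result. Of 27 neural gene clones 5 were higher (18.5%, against 6.18%) and 4 lower (14.8%, against 8.91%). The lower count was 1 or 2 without any 1 of p53 null 86, 87, 90 and 91 and WntT 73, 74 and 95. Ttyh1, a membrane protein of neural progenitors, had log2 ratios of -0.34, 0.38 and 2.27 in p53 null tumors and of -1.36, -0.56 and 0.04 in WntT tumors (1.47 ± 0.33, adjusted p = 0.055), and both clones of the actin regulator Pfn2 differed by 1.05 (adjusted p = 0.055).

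Lysosome and complement genes stood lower at P under 0.05 more often than all clones did (8.91%, with 6.18% of all clones higher). Of 21 lysosome clones 6 were lower (28.6%) and 1 higher at P under 0.05, 2 of the lower ones being the Lipa clones already given and 2 of the cathepsin Ctsb, and 3 were lower without both tumors 87 and 88, as also without any 1 of p53 null 86, 88, 89 and 90 and WntT 75, 76 and 97. Of 20 complement and coagulation clones 5 were lower and 0 higher, and 3 were lower without tumor 88. In the remaining lists these counts were adipocytes with 0 higher and 2 lower of 15 clones, erythroid cells with 0 and 2 of 15, antigen presentation with 1 and 2 of 13, glycolysis and hypoxia with 2 and 1 of 12, keratinizing epithelium with 1 and 0 of 14, skeletal muscle with 0 and 1 of 9, milk proteins with 0 and 2 of 9, and D cyclins and their partners with 1 and 1 of 18. Cd55, like Cd59a a brake on complement, was lower (-0.85 ± 0.23, adjusted p = 0.094), and Car12, a carbonic anhydrase, was higher (1.35 ± 0.38, adjusted p = 0.10). Over all 28 lists, 15 had a median below 0.

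The clones of a chromosome deviated together, beyond the largest value of any WntT tumor, on several chromosomes in p53 null tumors 87, 88 and 91, on 2 in tumor 89, on 1 in tumor 86 and on none in tumor 90. The deviation of a clone is its log2 ratio, after each array was centred on its median, minus the mean of the WntT tumors (for a WntT tumor, the 9 others), and the median over a chromosome's clones is given for 20 chromosomes and 7067 clones. The SD of a tumor's 20 chromosome medians was 0.064, 0.20, 0.17, 0.057, 0.023 and 0.16 in p53 null tumors 86 to 91, and 0.016, 0.029 and 0.041 (lowest, median and highest) in the 10 WntT tumors. Thus 5 of the 6 p53 null tumors stood above all WntT tumors and tumor 90 lay among them. This pattern was chosen after the values were seen and has no test, and DNA was not measured on these arrays.

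Some chromosomes were involved in several tumors and others in 1. The largest absolute median of any chromosome in a WntT tumor was 0.14, in tumor 92. Tumor 87 went past it on 11 chromosomes, 5 above (0.31 on chromosomes 12 and 15, 0.30 on 6, 0.24 on X and 0.17 on 1) and 6 below (-0.27 on 10, -0.24 on 11, -0.23 on 9 and 13, -0.21 on 8 and -0.20 on 5). Tumor 91 did so on 9 chromosomes, with 0.40 on 6, 0.24 on 14 and 0.23 on 12 above, and -0.22 on 18, -0.16 on 11, -0.15 on 13, 19 and X and -0.14 on 4 below. Tumor 88 did so on 3, at 0.33 on chromosome 5, -0.37 on 8 and -0.54 on 10. Tumor 89 did so on 2, at -0.18 on chromosome 14 and -0.15 on 13, tumor 86 on 1, at -0.22 on chromosome 8, and tumor 90 on 0. Chromosome 8 was thus below the WntT limit in 3 tumors (86, 87 and 88), chromosome 13 in 3 (87, 89 and 91), chromosomes 10 (87 and 88) and 11 (87 and 91) in 2 each, and chromosomes 6 and 12 were above it in 2 (87 and 91). Chromosomes 5 and X went opposite ways, 5 above in tumor 88 and below in tumor 87, and X above in tumor 87 and below in tumor 91, as did chromosome 14, above in tumor 91 and below in tumor 89.

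**Figure D3:**
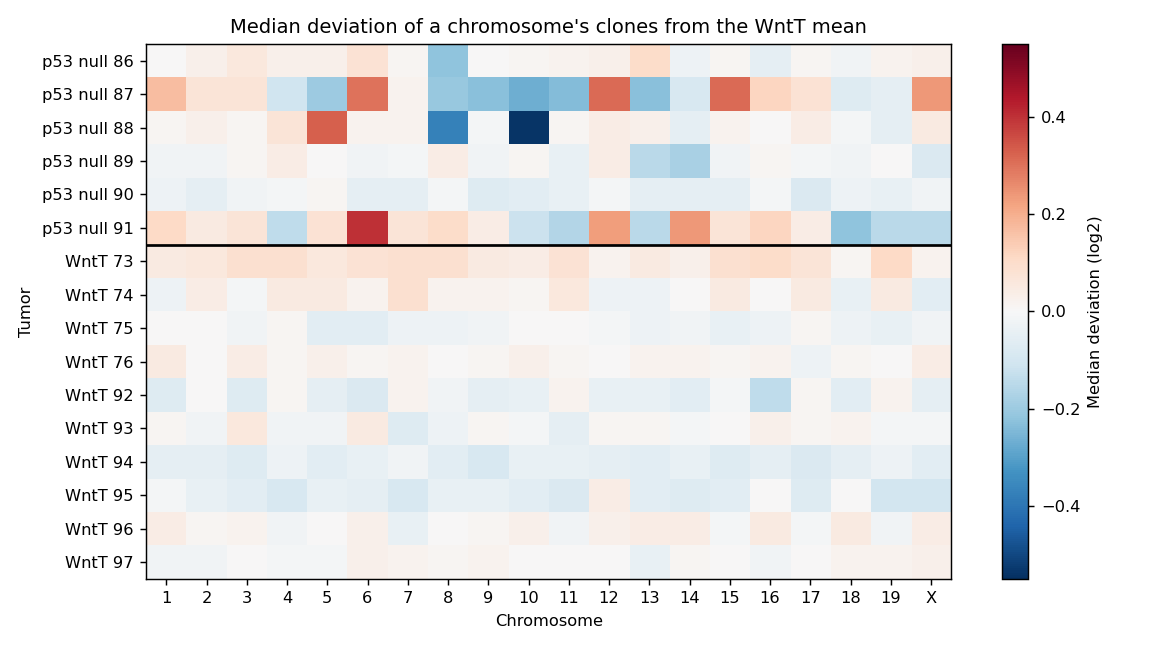
Median deviation from the WntT mean (color, log2 scale) of each chromosome (columns) in each tumor (rows), with the 6 p53 null tumors above the 10 WntT tumors. Tumor 88 is at -0.54 on chromosome 10, tumor 91 at 0.40 on chromosome 6, and no WntT tumor goes past 0.14 in either direction.

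Counts of clones with P under 0.05 differed between chromosomes, beside 6.18% higher and 8.91% lower over all clones. On chromosome 6, 65 of 364 clones (17.9%) were higher and 11 lower at P under 0.05, and 59 were higher without tumors 87 and 88. On chromosome 10, 71 of 358 clones (19.8%) were lower and 3 higher, and 35 were lower without tumors 87 and 88. On chromosome 8, 65 of 349 clones (18.6%) were lower and 8 higher, and again 35 were lower without both tumors. Chromosome 11, which carries Trp53, Ccng1, Chrnb1 and Krt19, had 81 of 636 clones lower (12.7%) and 18 higher, and 69 lower without both tumors.

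Within chromosomes, long stretches of neighbouring genes deviated, some in 1 tumor and some in several. Bins of 30 neighbouring genes (180 bins) were compared with the largest absolute bin median of any WntT tumor, 0.28. In tumor 88, 195 genes on chromosome 8 from Mau2 to Nrp1 had a median of -0.47, with 174 of them below 0, and 180 genes on chromosome 5 from Sec31a to Cyth3 a median of 0.42, with 146 above 0. In tumor 91, 207 genes on chromosome 6 from Skap2 to Amn1 had a median of 0.38, with 174 above 0. In tumor 86, 60 genes on chromosome 8 from Smad1 to Csnk2a2 had a median of -0.40, with 58 below 0. The distal bins of chromosome 8, from Smad1 to Nrp1, were low in 3 tumors. Bin medians ran from -0.41 to -0.26 in tumor 86, from -0.33 to -0.12 in tumor 87 and from -0.55 to -0.40 in tumor 88. In tumors 86 and 87 not every distal bin went past the limit of 0.28. The 4 bins before Smad1 lay between -0.11 and 0.11 in tumor 86. They were also below 0 in tumors 87 (-0.23 to -0.04) and 88 (-0.34 to -0.06). Part of the chromosome 6 stretch of tumor 91 was also high in tumor 87, with a median of 0.49 over 60 genes from Skap2 to Tia1.

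Chromosome 14 was split in tumor 89. A bin of 30 genes from Lrtm1 to Mmrn2 had a median of 0.49, the next 60 genes from Ldb3 to Mtmr6 a median of -0.60 with 53 below 0, and 37 genes from Rhobtb2 to Ggact a median of -0.60. In WntT tumors these bins lay between -0.13 and 0.13.

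Distal chromosome 6 was examined because Ccnd2 and Clec2g lie there, after their values were seen. Clec2g lies beyond Ccnd2, outside the stretch from Necap1 to Ccnd2 and inside the longer one from Fbxl14 to Amn1. Over the 16 measured genes from Necap1 to Ccnd2, the median deviation was 0.99, 0.39, 0.04, 0.02, 0.68 and 0.57 in p53 null tumors 86 to 91, and between -0.17 and 0.12 in WntT tumors. In tumor 90, whose other 281 genes on chromosome 6 had a median of -0.07, 10 of the 16 genes lay above all WntT tumors. The highest were Necap1, a clathrin coat partner, with a deviation of 2.90, Ccnd2 with 2.67, Cd9, a tetraspanin, with 1.56, Rad51ap1, a recombination factor, with 1.38, and Phb2, a prohibitin, with 1.34. In tumor 86 the deviation ran on to the chromosome's end, with a median of 0.82 over 75 genes from Fbxl14 to Amn1, against -0.03 over the 222 genes before Fbxl14.

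Tumors 91 and 87 differed from these in that the deviation was not confined to distal chromosome 6. The median was 0.33 and 0.32 before Fbxl14 and 0.41 and 0.29 from it on. Tumor 87 was uneven, with bin medians from 0.05 (1600020E01Rik to Hdac11) to 0.56 (Elmod3 to Tia1). Ccnd2 was high in tumor 91, with a deviation of 2.41, and not in tumor 87, at -0.22. Tumor 88 showed the reverse, with a Ccnd2 deviation of 2.27 and a median of 0.04 over the 16 genes. High Ccnd2 thus occurred with and without a deviation of the median over these 16 genes, which end with Ccnd2 itself. Its nearest measured genes were mixed in tumor 88, with D6Wsu163e before it at -0.26 and Parp11 beyond it at 0.60. The highest WntT deviation of Parp11 was 0.46.

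**Figure D4:**
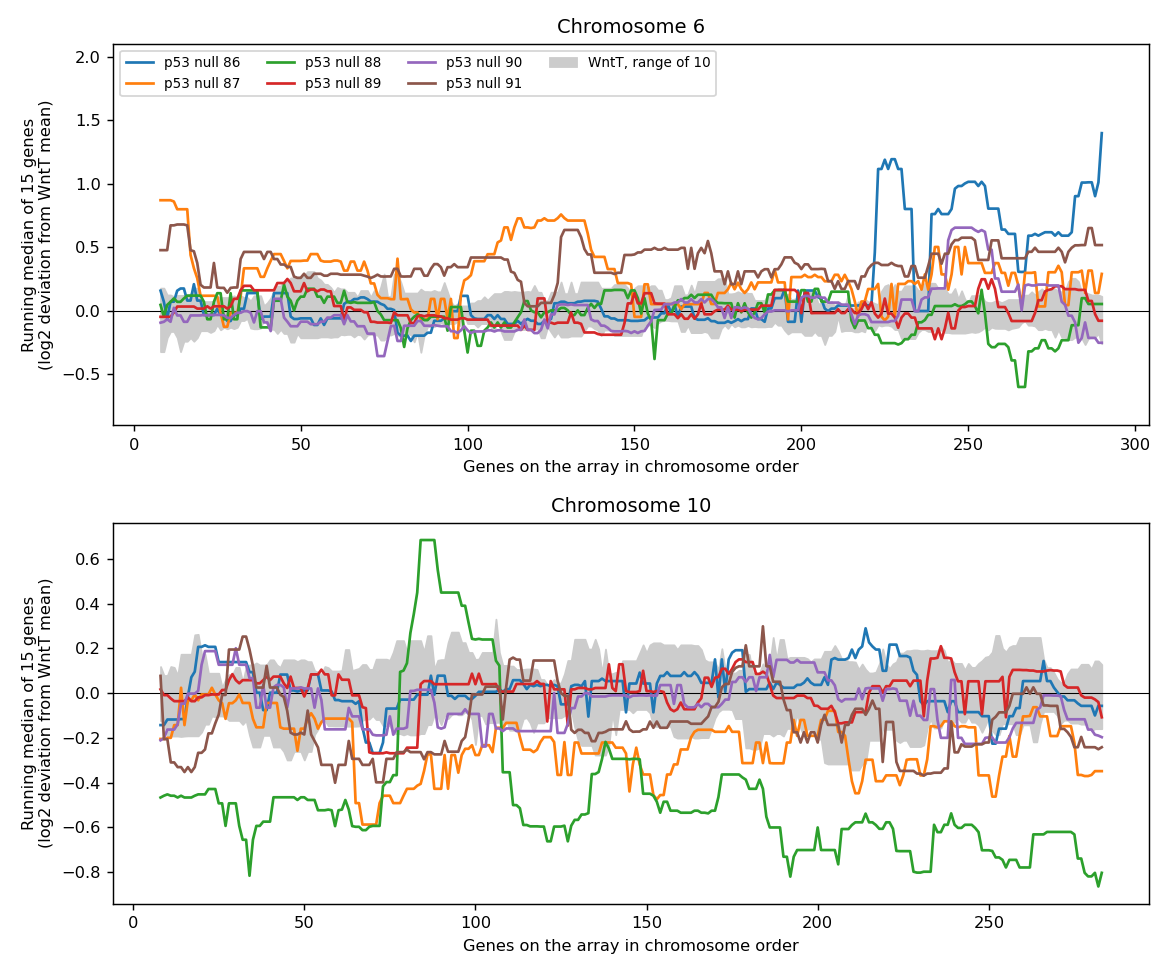
Running median over 15 neighbouring genes of the deviation from the WntT mean (vertical axis, log2 scale) in gene order along chromosomes 6 and 10 (horizontal axis), with a line for each p53 null tumor and the range of the 10 WntT tumors in grey. Tumor 86 is high over the distal end of chromosome 6, and tumor 88 is low along chromosome 10 except around Cdk1.

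Chromosome 10 in tumor 88 had the lowest chromosome median of any tumor, with 1 stretch that stood apart. Over 272 genes of the chromosome the median deviation was -0.55, with 231 genes below 0. Over the 18 genes from Tysnd1 to Ank3, which include Cdk1, it was 0.50, with 7 genes above all WntT tumors, while WntT tumors lay between -0.09 and 0.25 there. Cdk1 had a deviation of 2.39 and Ado, a thiol oxidase, of 1.60 in this tumor. Mdm2 also lies on chromosome 10, and both clones of Myb, which tumor 88 had at -3.57 and -3.52, lie there too. The WntT tumor 75 had -3.45 in both Myb clones with a chromosome 10 median of -0.00. A link between Myb and the chromosome's deviation was not tested.

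On chromosome 13, tumor 86 had a median of 1.03 over the last 15 genes from Gpbp1 on, with 11 of them above all WntT tumors, and of 0.09 over the 194 genes before. WntT tumors lay between -0.10 and 0.17 over these 15 genes, tumor 88 at 0.43 and the remaining p53 null tumors between -0.30 and -0.12. Like the other stretches, it was picked after the values were seen and describes these tumors only.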

How the data were processed

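The 8.7k cDNA arrays were hybridised with Cy5-labeled tumor RNA and Cy3-labeled RNA pooled from mouse organs. The values deposited by the authors are normalized log2 ratios of tumor to pool, after scanning and quality scoring of spots. The authors' filter on spot quality was not repeated, so all 8832 clones were tested. Of the values on the 16 arrays, 0 were missing, and 124 had a ratio under 0.01 and 5 one over 100.  Of the clones, 7147 carried a single symbol in the probe table, 386 several and 1299 none, and 7068 matched RefSeq (GRCm38.p6) by Entrez ID, which gave gene order.

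Groups came from sample titles. The study's own test was a permutation t-test with 10000 permutations and P under 0.001. Here lmFit and eBayes of limma 3.58.1 in R 4.3.3 were used on the log2 scale, two-sided, with Benjamini-Hochberg adjustment over all clones, and a call was an adjusted p under 0.05. A simulation over 8832 clones drew independent normal values for each clone, with the same SD in both groups. In it 47.8% of 1.5-fold, 79.1% of 2.0-fold and 98.5% of 4.0-fold changes were recovered, and 8 of 158 calls were false. These rates need not hold for the real arrays, where clones of a chromosome deviated together and p53 null arrays had wider values. Array measures were tested by exact permutation over 8008 splits (Python 3.11.15, NumPy 2.4.6, pandas 2.3.3). The number of arrays limits the precision, and p-values measure the spread between these samples, since nothing in the labels beyond separate tumor numbers tells whether each came from a mouse of its own.

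Named were the genes the study names for this comparison, Trp53 and 4 of its targets, the 12 single-symbol clones that rose most and the 12 that fell most among those called, and up to 3 called members of each list. Genes beyond this rule are said to be chosen after their values were seen, as are all those described at P under 0.05 in the lists and all chromosomes and stretches. Members, lists and tests were chosen with the paper and earlier results of these data known. Alternatives were other centring and normalization, filters, other fits, the study's test and leaving out arrays. The 15k arrays and 3 further 8.7k arrays of another genotype were not compared here, except that those 3 entered 1 alternative fit.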

Additional observations from a re-analysis of the deposited data

Results flagged for a closer look

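Of 112 groups of values examined, 7 held a tumor whose gap to the nearest other value was large beside the group's range (Dixon's criterion), and chance alone gives about 1 such group in 20. In p53 null tumors, tumor 87 had a log2 ratio of -1.40 for 1 Ccdc117 clone, with the next at -0.72, and tumor 88 had 1.78 for Lhfpl2, with the next at 1.08. Of the chromosome medians of p53 null tumors, tumor 91 stood apart on chromosome 14 at 0.24 (next -0.03) and on chromosome 18 at -0.22 (next -0.07), and tumor 87 on chromosome 15 at 0.31 (next 0.07). In WntT tumors, tumor 73 stood apart on chromosome 8 at 0.09 (next 0.02), and the array median of tumor 92 at -0.04 (next -0.01).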

How the results depend on the processing

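The 39 clones called became 22 after centring each array on its median, 5 after quantile normalization, 63 with a trended robust eBayes fit, 82 with array weights and 60 with all 8.7k arrays in 1 fit, and the study's permutation test gave 131 at P under 0.001, 38 of them among the 39. After Benjamini-Hochberg adjustment that test gave 48. The causes were not tested. Leaving out 1 array gave 0 to 86 calls by limma, the most without p53 null 87. Without 1 of the 9 arrays that left 0 calls, and without any other, 474 to 602 clones were higher and 685 to 839 lower at an unadjusted P under 0.05. The difference in array SD ran from 0.079 to 0.14 without 1 array and its exact permutation p passed 0.05 in several of these. The share of squared distance between genotypes ran from 13.9 to 16.6%. Cdkn1a changed sign, to 0.22 with array weights, 0.51 without tumors 87 and 88 (an alternative chosen after seeing the data), and -0.49 to 0.18 without 1 array, above 0 without p53 null 86, 87 or 88 or WntT 73. Of 825 values of the 33 named clones under the alternatives, 462 kept direction and side of the threshold, 354 kept only the direction and lost the call, 3 gained a call and 6 changed sign, all of Cdkn1a. No paired analysis was possible because no title number occurs in both groups.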
